A study of Homo sapiens with 30 samples.

Results

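The p53 target genes MDM2, CDKN1A, GDF15, BAX, BBC3, ZMAT3, SESN1, TP53INP1 and FDXR were followed in the glioblastoma cell lines U87-MG (U87) and U251-MG (U251) during and after exposure to interferon-γ (IFN-γ). The 9 genes were taken by their symbols from tables of 61471 genes, and all 9 were present in both tables and passed the filter on low values. The cells were bulk cultures, and the values are in TPM, a share of the RNA scaled to transcript length that sums to the same total in every library.

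The protein p53 is a transcription factor that is held low by MDM2, an E3 ubiquitin ligase whose own gene p53 switches on. When DNA damage or other stress frees p53, it raises genes that stop the cell cycle, such as CDKN1A, and genes that prepare cell death, such as BAX and BBC3. It also raises genes for secreted signals, RNA control, antioxidant defence and metabolism. None of these genes answers to p53 alone, and several are also raised by interferons or by the integrated stress response. U87 is known to carry normal p53 and U251 a mutant form, while the sample labels list the genotype of both lines as WT.

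Each line had 5 groups with 3 libraries each in the labels. Untreated cells received no IFN-γ, D3, D14 and D28 cells were kept in it for 3, 14 and 28 days, and D28WO cells were kept in it for 14 days and then without it for 14 days. Both lines were grown in DMEM with serum, and the labels describe no other agent or allele. The labels give the dose as 1 µg/mL in one field and 1 µL/mL in another, and the study's methods give a lower one. They date the Untreated cells to day 3, whereas the methods date them to day 0, so the Untreated cells were not a control of the same age for D14, D28 and D28WO. Each line stands for 1 tumor, and according to the methods line identity was not checked independently by short tandem repeat profiling after receipt. The methods describe the replicates as independent cultures. They also say that cultures were divided at D14 into those kept in IFN-γ and those without it. Libraries of D28 and D28WO may therefore share parent cultures, and the labels do not say which. A pair of U87 columns carried the same name and was left out, which left 2 libraries each at D3 (replicates 2 and 3) and D14 (replicates 2 and 3).

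Libraries held 24223 to 28649 genes above 0 in U87 and 24450 to 30246 in U251, and the lowest correlation of a library with its group ranged from 0.959 to 0.972. Glioma and astroglial markers summed to 1517 to 2171 TPM in U87 and 1489 to 3775 TPM in U251. In U251 5 or 6 of the 6 tested were lower in each IFN-γ group, and in U87 1 of 6 was lower at D3, 2 were higher at D28, and 3 were lower and 2 higher at D28WO. Over all genes, 16%, 7.31%, 14.7% and 13.4% were lower in U251 at D3, D14, D28 and D28WO. In U87 4.28% of all genes were lower at D3, 17.2% higher at D28, and 13.4% lower and 28.6% higher at D28WO. Leukocyte markers reached at most 1.80 TPM in sum in U87 and 7.37 TPM in U251. Endothelial markers summed to at most 3.37 TPM in U87, but to 26.6 to 38.4 TPM in Untreated U251 against 2.45 to 21.4 TPM in its other groups. Epithelial markers summed to 31.7 to 60.4 TPM in U87, and in U251 to 64.0 to 68.3 TPM in Untreated against 25.9 to 44.8 TPM in the other groups. The part of these markers in the results below was not tested. The number of genes above 0 was lower in Untreated U87 (24223 to 25459) than in every other U87 library, and in U251 its median was highest at D28 (28955 to 30246).

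The labels were set against a check list of 10 genes known to answer IFN-γ. IRF1, a transcription factor of the interferon response, was at 133 ± 2.78 TPM (SD, n = 3) in Untreated U87. At D3 it stood at 448 ± 3.34 TPM and in the D14 libraries at 122 ± 17.1 (both n = 2). In U87 10 of the 10 genes rose at D3, D28 and D28WO and 0 of 10 at D14, and in U251 10, 9, 10 and 10 of 10 rose at D3, D14, D28 and D28WO. The U87 libraries labelled D14 thus stood at the Untreated level of IFN-γ genes. By the median of the 10 genes, the libraries labelled D28WO, 14 days without the cytokine, stood near the D28 level in both lines. That median log2 fold change against D28 was 0.057 in U87 and 0.054 in U251. Single genes did differ. In U87 1 was called higher and 0 lower (range -0.18 to 0.44), where 9.9% and 8.44% of all genes were. In U251 2 were called higher and 1 lower (range -2.49 to 0.53), where 10.3% and 18.8% of all genes were. The check list thus sets neither the D14 libraries of U87 apart from Untreated nor, by its median, the D28WO libraries of either line apart from D28. Fits without the D14 libraries, chosen after seeing this, gave the values named with the genes below.

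Of the 9 genes, 8 had promoter windows in RefSeq (GRCh38.p14), each 300 bases from 250 before to 50 after a start, 15 windows in all. The p53 decamer, the repeat unit of the p53 response element, was searched on both strands and found in 2 genes, SESN1 and FDXR, against 8.06% of 27305 genes with a window. The interferon regulatory factor element, GAAA, 2 free bases and GAAA again, was in 1 of the 8 genes, BBC3 (4.38% of all genes). A match is a run of letters and not a bound site, and no match says only that the letters are absent from these windows. The stretches with a match are shown for the letters in capitals, 5′ to 3′ on the minus strand of GRCh38.p14, where all 3 genes lie.
SESN1, chr6:109008989-109009238, the 250 bases before 1 of its 3 starts, the p53 decamer in capitals: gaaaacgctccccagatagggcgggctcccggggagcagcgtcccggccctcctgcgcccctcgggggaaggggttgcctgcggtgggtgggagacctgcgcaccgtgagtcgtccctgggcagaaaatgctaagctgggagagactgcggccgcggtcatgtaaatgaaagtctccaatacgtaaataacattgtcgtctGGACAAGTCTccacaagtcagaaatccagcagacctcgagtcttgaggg
FDXR, chr17:74872986-74873015, from 21 bases before to 9 after 1 of its 2 starts, the p53 decamer in capitals: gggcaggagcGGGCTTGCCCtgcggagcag
BBC3, chr19:47232620-47232649, bases 19 to 48 after the start, 2 overlapping matches of the interferon regulatory factor element in capitals: acaatgaGAAACTGAAAAAGAAAcggaatg

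In U87, the cell death gene BBC3 was called higher than Untreated in all 4 groups, the secreted factor GDF15 and the stress protein TP53INP1 at D3, D28 and D28WO, the mitochondrial reductase FDXR at D3 and D28WO, and the RNA-binding protein ZMAT3 at D28 and D28WO. The calls of BBC3 at D3, D28 and D28WO and of GDF15, TP53INP1 and FDXR at D28WO held in every alternative run. All others were lost in some, BBC3 at D14 in 9, GDF15 in 2 at D3 and 11 at D28, TP53INP1 in 6 and 7, FDXR at D3 in 6, and ZMAT3 in 7 at D28 and 2 at D28WO. BBC3 was 2.17-fold its Untreated level at D3, 2.05-fold at D28 and 2.60-fold at D28WO. CDKN1A, MDM2, BAX and SESN1 did not pass the test in U87 against Untreated. In U251, GDF15 was called higher in all 4 groups and rose 3.29-fold at D3 and 4.07-fold at D28. CDKN1A rose up to 2.35-fold at D14 in U251 and fell below Untreated at D28WO. ZMAT3 was called lower in U251 at D28, which held in every alternative run. Also called lower there were BAX at D3 and TP53INP1 at D14. Called higher were CDKN1A at D3 and D28, MDM2 at D28 and BBC3 at D28WO. Of these, only the CDKN1A call at D28 held in every alternative run. SESN1 and FDXR did not pass the test in U251 against Untreated. Folds are from the log2(TPM + 1) scale, which understates changes of low genes. The libraries are bulk RNA, so fewer cells with a transcript and less of it per cell cannot be told apart.

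**Figure D1:**
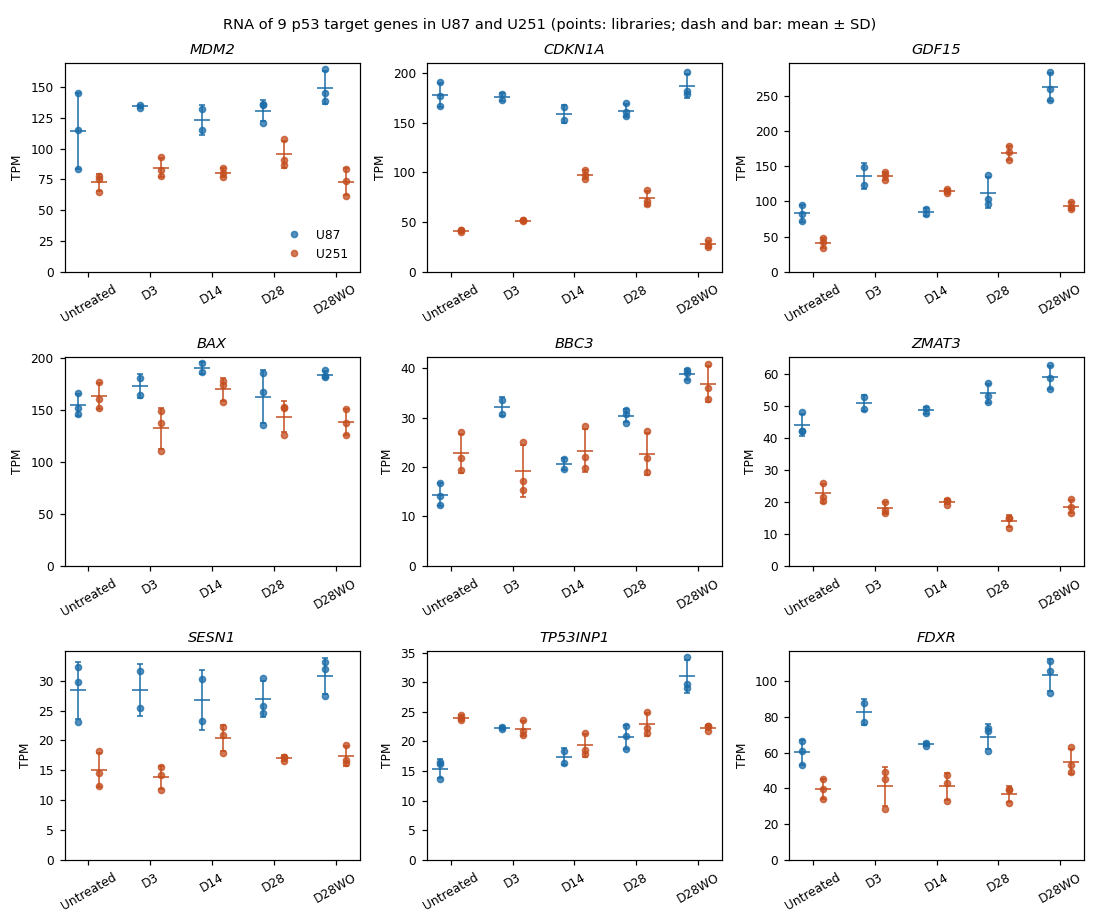
RNA level (TPM, linear axes from 0) of the 9 p53 target genes in each library, by group, with U87 in blue and U251 in orange; the dash and bar are the group mean and SD (n = 3, and n = 2 for U87 at D3 and D14). In U251 CDKN1A climbs to 93.7 to 102 TPM at D14 and drops to 24.8 to 31.8 TPM at D28WO, and in U87 GDF15 reaches 244 to 284 TPM at D28WO.

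Tests used limma on log2(TPM + 1), 1 fit for all 5 groups of each line, and a gene was called at a Benjamini-Hochberg adjusted p under 0.05 over all genes tested in the line. In U87 the 9 genes gave 4 higher and 0 lower calls at D3, where 12.4% of 22918 genes were called higher and 4.28% lower. At D14 the call was 1 higher, BBC3, with 4.14% of all genes higher and 1.02% lower. At D28 there were 4 higher calls (17.2% of all genes higher and 6.55% lower), and at D28WO 5 (28.6% higher and 13.4% lower). With an added limit of 1 on the log2 scale, the higher calls in U87 numbered 1, 0, 1 and 2 of 9, where 5.85%, 1.89%, 6.77% and 12.8% of all genes were called. The count at D3 was 1 without D3 replicate 2, and 2 without D3 replicate 3 or Untreated replicate 3. At D28 it was 1 without Untreated replicate 3 or D28 replicate 2, and 2 without Untreated replicate 1 or D28 replicate 1. The call at D14 was gone without Untreated replicate 1 or 3 or either D14 library. The 4 comparisons share the Untreated libraries and are not independent. The split of all genes between higher and lower moved with the scaling. At D3 it was 2843 higher and 980 lower, against 1849 and 1866 with median-ratio size factors and 1178 and 1056 with quantile normalization. At D14 948 and 234 became 452 and 310 (median-ratio) or 266 and 215 (quantile), at D28 3945 and 1500 became 2598 and 2842 or 1672 and 1697, and at D28WO 6561 and 3065 became 4652 and 4655 or 3666 and 4391.

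In U251 the 9 genes gave 2 higher and 1 lower call at D3, 2 and 1 at D14, 3 and 1 at D28, and 2 and 1 at D28WO. The share of all 23667 genes called was 24.9% higher and 16% lower at D3, 13.8% and 7.31% at D14, 25.9% and 14.7% at D28, and 14.3% and 13.4% at D28WO. With the added log2 limit, 1, 2, 1 and 1 of the 9 were called higher, where 9.72%, 4.72%, 11.9% and 4.07% of all genes were. Median-ratio size factors and quantile normalization turned the 5890 higher and 3787 lower genes at D3 into 4873 and 4664 or 4606 and 4684, the 3277 and 1731 at D14 into 2595 and 2520 or 2334 and 2313, and the 6141 and 3476 at D28 into 5042 and 4519 or 4271 and 4684. At D28WO 3378 and 3177 became 3132 and 3444 or 3210 and 3422, with more lower than higher. A single gene is a large share of 9, so these counts are not read as a result about the genes as a set.

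The whole table also moved. The median log2 fold change of all genes tested against Untreated was, in the order D3, D14, D28 and D28WO, 0.20, 0.15, 0.19 and 0.25 in U87 and 0.13, 0.096, 0.16 and 0.015 in U251. The median of the 9 genes was 0.26, 0.14, 0.22 and 0.41 in U87, and -0.11, 0.057, -0.0082 and 0.0015 in U251. The value relative to this median is therefore given beside each of the 9 genes' changes against Untreated that was called.

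**Figure D2:**
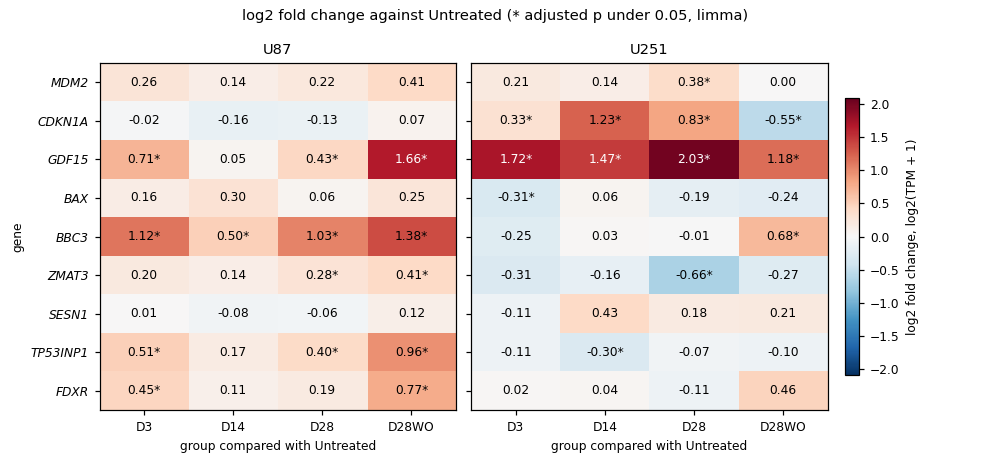
log2 fold change against Untreated, on the log2(TPM + 1) scale, of each gene (rows) at D3, D14, D28 and D28WO (columns) in U87 (left) and U251 (right), with a star for an adjusted p under 0.05 in limma. U87 shows warm cells for BBC3, GDF15, TP53INP1 and FDXR that are deepest at D28WO. In U251 the deepest are GDF15 in every group and CDKN1A at D14 and D28. Paler starred warm cells in U251 are CDKN1A at D3, MDM2 at D28 and BBC3 at D28WO. Starred cool cells there are BAX at D3, TP53INP1 at D14, ZMAT3 at D28 and CDKN1A at D28WO.

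MDM2 (ENSG00000135679, chromosome 12, 68808177 to 68845544, GENCODE release 44) encodes the ubiquitin ligase that marks p53 for destruction, and its level is often read as a sign of p53 activity. In U87 the Untreated libraries were at 115, 83.3 and 145 TPM, and this spread is the widest of the 5 groups. The D3 libraries were at 133 and 135 TPM, D14 at 115 and 132, D28 at 136, 135 and 121, and D28WO at 164, 145 and 139. Each treated group overlapped the Untreated one.
The log2 fold change of MDM2 in U87, with its SE, was 0.26 ± 0.18 at D3 and 0.14 ± 0.18 at D14. It was 0.22 ± 0.16 at D28, and D28WO stood at 0.41 ± 0.16. None passed the test (limma adjusted p = 0.324, 0.681, 0.33 and 0.0517). The last was called without Untreated replicate 3 (adjusted p = 0.00466), with quantile normalization (0.0221), with array weights (0.0166) and with a filter at 1 TPM (0.0457). Against the median of all genes it stood 0.16 higher.
In U251 MDM2 was at 75.4, 78.0 and 64.8 TPM in Untreated, 77.7, 92.9 and 82.5 at D3 and 76.7, 84.0 and 80.2 at D14. At D28 they were at 108, 86.8 and 90.8 TPM, all above Untreated, and at D28WO at 61.7, 74.1 and 83.6. MDM2 rose at D28 by 0.38 ± 0.12 on the log2 scale (limma adjusted p = 0.0167, 0.22 above the median of all genes), and was 0.0015 ± 0.12 from Untreated at D28WO (adjusted p = 1). Median-ratio size factors took the D28 call away (0.0889), as did leaving out Untreated replicate 3 (0.0775) or D28 replicate 1 (0.0797).

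CDKN1A (ENSG00000124762, chromosome 6, 36676460 to 36687337) encodes p21, the inhibitor of cyclin-dependent kinases through which p53 halts the cell cycle. Its level barely moved in U87, with 177, 167 and 191 TPM in Untreated, 173 and 178 at D3 and 165 and 153 at D14. D28 libraries were at 157, 160.5 and 169.8 TPM and D28WO libraries at 182, 201 and 179. The groups overlapped Untreated at D3, D28 and D28WO, while both D14 libraries lay below it.
In log2 units the CDKN1A differences in U87 were -0.018 ± 0.078 (D3), -0.16 ± 0.078 (D14), -0.13 ± 0.070 (D28) and 0.071 ± 0.070 (D28WO), and none was called (limma adjusted p = 0.909, 0.24, 0.195 and 0.448). Quantile normalization alone called the last one (adjusted p = 0.00516). Against the median of all genes the values were -0.22, -0.31, -0.32 and -0.18.
In U251 CDKN1A moved with the groups. It was at 41.6, 41.7 and 39.5 TPM in Untreated and at 52.1, 51.6 and 51.0 at D3. D14 libraries held 93.7, 97.3 and 102 TPM, D28 libraries 68.4, 70.9 and 82.2, and D28WO libraries 24.8, 31.8 and 26.8. No 2 neighbouring groups overlapped in the order D28WO, Untreated, D3, D28, D14, and the highest mean was 3.52 times the lowest.
The CDKN1A rise in U251 was 0.33 ± 0.089 on the log2 scale at D3, 1.23 ± 0.089 at D14 and 0.83 ± 0.089 at D28 (limma adjusted p = 0.00961, 5.2e-07 and 5.4e-06). At D28WO the gene fell by 0.55 ± 0.089 below Untreated (adjusted p = 0.000361). Against the median of all genes the 4 values were 0.20, 1.14, 0.67 and -0.57 in order of the groups. The D3 value missed the threshold under median-ratio scaling (0.0716), while the calls at D14, D28 and D28WO held in every alternative run. Whether the lines differ was not tested, because their tables were normalized separately.

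BAX (ENSG00000087088, chromosome 19, 48954815 to 48961798) forms pores in the mitochondrial membrane during cell death. It was among the more abundant of the 9 transcripts, with 146, 167 and 152 TPM in Untreated U87. The later U87 groups were at 181 and 165 TPM (D3), 195 and 186 (D14), 136, 186 and 167 (D28) and 182, 188 and 182 (D28WO), with the D14 and D28WO libraries all above Untreated. None of the 4 U87 changes was called, with log2 values of 0.16 ± 0.11, 0.30 ± 0.11, 0.063 ± 0.10 and 0.25 ± 0.10 (limma adjusted p = 0.356, 0.138, 0.687 and 0.0621).
Alternatives called the D28WO rise, among them quantile normalization (adjusted p = 0.0105), the replicate block (0.0247) and leaving out Untreated replicate 2 (0.0481), although it was 0.00 relative to the median of all genes.
In U251 BAX was at 161, 177 and 152 TPM in Untreated, 149, 110.5 and 137 at D3 and 158, 174 and 178 at D14. D28 libraries held 126, 152 and 153 TPM and D28WO libraries 151, 137 and 126. It fell at D3 by 0.31 ± 0.11 on the log2 scale (limma adjusted p = 0.0365), and stood at -0.44 against the median of all genes. The call was lost in 8 alternatives (adjusted p = 0.0557 to 0.162), among them the fit without the D14 libraries (0.0557) and leaving out Untreated replicate 1 (0.0677), Untreated replicate 2 (0.133) or D3 replicate 2 (0.162).

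BBC3 (ENSG00000105327, chromosome 19, 47220822 to 47232766) encodes PUMA, a BH3-only protein that sets off BAX. In U87 the Untreated libraries held 14.2, 16.8 and 12.3 TPM, the lowest level of any group. D3 libraries were at 33.6 and 30.9 TPM and D14 libraries at 21.6 and 19.7. D28 libraries held 29.0, 30.7 and 31.5 TPM and D28WO libraries 37.7, 39.7 and 39.1. Every treated library lay above every Untreated one, also at D14, where the check genes of IFN-γ stood at the Untreated level.
The rise of BBC3 in U87 was 1.12 ± 0.13 on the log2 scale at D3 and 1.03 ± 0.12 at D28, both called (limma adjusted p = 0.000183 and 9.9e-05). It was 0.50 ± 0.13 at D14 (adjusted p = 0.049) and 1.38 ± 0.12 at D28WO (4.3e-06). Against the median of all genes the 4 values were 0.92, 0.35, 0.85 and 1.13 in order of the groups. The calls at D3, D28 and D28WO held in every alternative run, and that at D14 was lost in 9 (adjusted p = 0.0641 to 0.372).
In U251 BBC3 rose at D28WO. Levels were 27.1, 21.8 and 19.5 TPM in Untreated, 15.3, 17.2 and 25.1 at D3 and 28.3, 19.8 and 22.0 at D14. D28 libraries held 21.8, 27.4 and 19.0 TPM and D28WO libraries 36.0, 40.9 and 33.7. The D28WO libraries stood above every other U251 library.
Its log2 fold change at D28WO was 0.68 ± 0.19 (limma adjusted p = 0.0174), or 0.66 above the median of all genes. The call was lost without Untreated replicate 2 (0.0532), without Untreated replicate 3 (0.0727) and without D28WO replicate 2 (0.0669). The values were -0.25 ± 0.19 at D3, 0.030 ± 0.19 at D14 and -0.0082 ± 0.19 at D28, and these were not called (adjusted p = 0.323, 0.948 and 0.987).

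GDF15 (ENSG00000130513, chromosome 19, 18374731 to 18389176) encodes a secreted stress cytokine of the TGF-β family. The Untreated U87 libraries were at 95.4, 81.6 and 71.5 TPM, and the D14 libraries, at 89.6 and 81.5, overlapped them. D3 libraries were at 149 and 123 TPM and D28 at 96.1, 104 and 137, just above the Untreated range. At D28WO GDF15 was at 259.7, 284 and 244 TPM, above every other U87 library.
On the log2 scale GDF15 in U87 rose by 0.71 ± 0.16 (D3), 0.43 ± 0.14 (D28) and 1.66 ± 0.14 (D28WO; limma adjusted p = 0.0108, 0.0443 and 4.3e-06), and stood 0.054 ± 0.16 from Untreated at D14 (0.886). Relative to the median of all genes these were 0.51, 0.24, 1.41 and -0.095. The rise at D28WO held in every alternative run. The call at D3 was lost with only the 2 compared groups in the fit (0.0809) and without D3 replicate 2 (0.122), and that at D28 in 11 alternatives (adjusted p = 0.0616 to 0.245), among them the fit without the D14 libraries (0.0616).
The largest change of the 9 genes in U251 was that of GDF15 at D28. The gene went from 41.7, 48.2 and 33.6 TPM in Untreated to 137, 130.2 and 141 at D3, 112, 115 and 118 at D14, and 179, 169.7 and 159 at D28. D28WO libraries were at 99.5, 92.5 and 89.0 TPM. The groups did not overlap in the order Untreated, D28WO, D14, D3, D28, and the highest mean was 4.11 times the lowest.
The log2 values in U251 were 1.72 (D3), 1.47 (D14), 2.03 (D28) and 1.18 (D28WO), each ± 0.099 (limma adjusted p = 1.3e-08, 2.4e-07, 2.2e-09 and 8.8e-07), or 1.59, 1.38, 1.86 and 1.16 above the median of all genes. All 4 held in every alternative run.

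ZMAT3 (ENSG00000172667, chromosome 3, 178960121 to 179072215) encodes a zinc-finger RNA-binding protein of the p53 program. In U87 it was at 42.1, 48.2 and 42.1 TPM in Untreated, 52.7 and 49.1 at D3 and 47.9 and 49.3 at D14. D28 libraries held 57.3, 53.1 and 51.3 TPM and D28WO libraries 62.7, 55.4 and 58.7. The D3, D28 and D28WO libraries lay above the Untreated range.
ZMAT3 rose in U87 by 0.28 ± 0.085 on the log2 scale at D28 and 0.41 ± 0.085 at D28WO (limma adjusted p = 0.0315 and 0.0023), which is 0.095 and 0.16 above the median of all genes. At D3 and D14 it was 0.20 ± 0.095 and 0.14 ± 0.095, not called. The D28WO call was lost with quantile normalization (0.0703) and median-ratio size factors (0.0908), and the D28 call in 7 alternatives (0.0669 to 0.404).
In U251 ZMAT3 fell at D28. It was at 25.9, 21.6 and 20.4 TPM in Untreated, 20.0, 17.5 and 16.5 at D3 and 19.1, 20.4 and 20.6 at D14. D28 libraries held 15.04, 14.96 and 11.9 TPM, below every other U251 library, and D28WO libraries 18.3, 20.8 and 16.5. The fall of 0.66 ± 0.13 on the log2 scale at D28 was called (limma adjusted p = 0.00106), stood at -0.82 against the median of all genes and held in every alternative run.
The other U251 values, -0.31 ± 0.13 at D3, -0.16 ± 0.13 at D14 and -0.27 ± 0.13 at D28WO, were not called (adjusted p = 0.0704, 0.415 and 0.141). Quantile normalization (0.00603), median-ratio size factors (0.0129) and leaving out D3 replicate 1 (0.0496) called the one at D3.

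SESN1 (ENSG00000080546, chromosome 6, 108984309 to 109094846), a sestrin that restrains the growth kinase mTORC1, moved least in U87. Its libraries ranged from 23.1 to 32.2 TPM in Untreated, 25.4 to 31.6 at D3 and 23.2 to 30.3 at D14. The ranges were 24.6 to 30.4 TPM at D28 and 27.4 to 33.1 at D28WO, so each group overlapped Untreated. The log2 fold changes ran from -0.081 at D14 to 0.12 at D28WO, and the lowest limma adjusted p was 0.554.
In U251 SESN1 was at 18.2, 12.4 and 14.6 TPM in Untreated, 15.5, 11.8 and 14.2 at D3 and 18.0, 22.3 and 20.9 at D14. D28 libraries held 17.3, 16.5 and 17.3 TPM and D28WO libraries 19.3, 16.7 and 16.2, and each group overlapped Untreated. The value at D14 was 0.43 ± 0.14 on the log2 scale (limma adjusted p = 0.0515). It was called with array weights (0.0234), with a filter at 1 TPM (0.0459), without Untreated replicate 1 (0.0174) and without D14 replicate 1 (0.0424).

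TP53INP1, on chromosome 8, encodes a stress-induced nuclear protein that helps p53 reach its death genes. In U87 it was at 16.1, 16.5 and 13.7 TPM in Untreated, 22.1 and 22.5 at D3 and 16.4 and 18.4 at D14. D28 libraries held 20.9, 22.6 and 18.6 TPM and D28WO libraries 34.2, 29.1 and 29.7. Libraries at D3, D28 and D28WO all lay above Untreated, and D14 overlapped it.
TP53INP1 rose in U87 by 0.51 ± 0.14, 0.40 ± 0.12 and 0.96 ± 0.12 on the log2 scale at D3, D28 and D28WO (limma adjusted p = 0.0267, 0.0329 and 8.4e-05), or 0.31, 0.21 and 0.71 above the median of all genes. The D28WO call held in every alternative run. Quantile normalization lowered the D3 value to 0.17 and the D28 value to 0.058. The D3 call was lost in 6 alternatives (0.0654 to 0.366), among them without Untreated replicate 3 (0.0766), D3 replicate 2 (0.121) or D3 replicate 3 (0.104), and the D28 call in 7 (0.0523 to 0.745).
Levels in U251 stayed between 17.9 and 25.0 TPM. Untreated libraries were at 24.4, 23.6 and 24.0 TPM and D14 libraries at 21.5, 18.6 and 17.9, a fall of 0.30 ± 0.094 on the log2 scale (limma adjusted p = 0.0346) that was -0.40 against the median of all genes. This call was lost with only the 2 compared groups and without any of 5 libraries (0.0726 to 0.127). The other U251 groups were at 21.2 to 23.6 TPM (D3), 21.3 to 25.0 (D28) and 21.8 to 22.6 (D28WO), and were not called. Quantile normalization alone called falls at D3 (-0.23, limma adjusted p = 0.0398) and D28 (-0.27, 0.0226).

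FDXR (ENSG00000161513, chromosome 17, 74862497 to 74873031) encodes ferredoxin reductase, which passes electrons to iron-sulfur proteins in mitochondria. In U87 it was at 66.7, 60.6 and 52.96 TPM in Untreated, 77.3 and 87.7 at D3 and 65.5 and 63.7 at D14. D28 libraries held 60.8, 72.3 and 73.4 TPM and D28WO libraries 111, 105 and 93.2. The D3 and D28WO libraries stood above Untreated, and those of D14 and D28 overlapped it.
FDXR rose by 0.45 ± 0.12 on the log2 scale at D3 and 0.77 ± 0.11 at D28WO in U87 (limma adjusted p = 0.0252 and 0.000161), or 0.26 and 0.52 above the median of all genes. The D28WO call held in every alternative run, and the D3 call was lost in 6 (0.0707 to 0.158), among them without Untreated replicate 3 (0.0792), D3 replicate 2 (0.0707) or D3 replicate 3 (0.158).
In U251 FDXR was at 39.8, 45.3 and 33.8 TPM in Untreated, 45.5, 28.6 and 49.3 at D3 and 42.8, 33.0 and 47.4 at D14. D28 libraries held 39.4, 39.0 and 31.6 TPM and D28WO libraries 49.0, 62.9 and 52.8. The D28WO libraries were all above Untreated, with a log2 value of 0.46 ± 0.19 that was not called (limma adjusted p = 0.0935). The values at D3, D14 and D28, 0.024, 0.044 and -0.11, each ± 0.19, were not called either.

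The comparison of D28WO with D28 asked what differed after 14 days without the cytokine from 28 days with it. In U87 GDF15 was 1.23 ± 0.14 higher on the log2 scale at D28WO than at D28, TP53INP1 0.56 ± 0.12 and FDXR 0.58 ± 0.11 (limma adjusted p = 0.000224, 0.00852 and 0.00349). These 3 of 9 genes were called higher and 0 lower, where 9.9% of all genes were called higher and 8.44% lower, and each held in every alternative run. BBC3 (0.34 ± 0.12) and CDKN1A (0.20 ± 0.070) missed the threshold (adjusted p = 0.0606 and 0.0651), and array weights called both (0.0402 and 0.0466). The remaining 4 genes were 0.13 to 0.19 higher on the log2 scale and not called.

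In U251 the same comparison split the genes. CDKN1A was 1.38 ± 0.089 lower, GDF15 0.85 ± 0.099 lower and MDM2 0.38 ± 0.12 lower at D28WO on the log2 scale (limma adjusted p = 1.8e-07, 3.0e-05 and 0.0237). BBC3 was 0.69 ± 0.19 higher, FDXR 0.57 ± 0.19 and ZMAT3 0.38 ± 0.13 (adjusted p = 0.0164, 0.0397 and 0.0385). The median of all genes was -0.12 in this comparison, and against it the 6 values were -1.26, -0.73, -0.26, 0.81, 0.69 and 0.50. Of the 9 genes 3 were called higher and 3 lower, where 10.3% of all genes were higher and 18.8% lower (2444 and 4445 genes, against 3323 and 3713 with median-ratio size factors and 3329 and 3102 with quantile normalization). The calls of CDKN1A and GDF15 held in every alternative run. Those of MDM2, BBC3, FDXR and ZMAT3 were lost in 4, 2, 7 and 6 alternatives (adjusted p up to 0.111, 0.0719, 0.14 and 0.155), that of ZMAT3 also in the fit without the D14 libraries (0.0581). Without D28 replicate 3, 3 of the 6 calls were left, and without D28WO replicate 2 also 3.

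**Figure D3:**
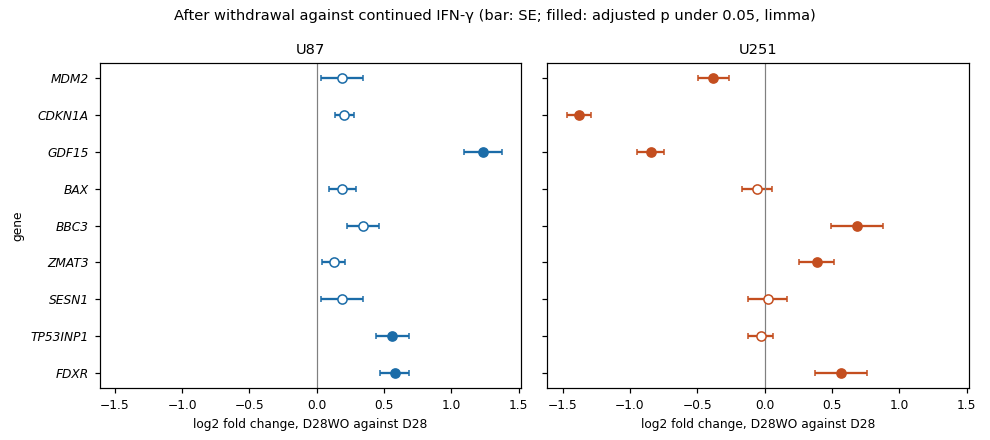
log2 fold change of D28WO against D28, on the log2(TPM + 1) scale, for each gene in U87 (left) and U251 (right), with bars for the SE and filled points for an adjusted p under 0.05 in limma. All 9 points lie above 0 in U87, led by GDF15 at 1.23, while U251 has CDKN1A at -1.38 and BBC3 at 0.69 on opposite sides.

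Between the earlier groups of U87, BBC3 was 0.62 ± 0.14 lower and GDF15 0.66 ± 0.17 lower on the log2 scale in the libraries labelled D14 than at D3 (limma adjusted p = 0.0284 and 0.0498), 2 of 9 genes where 3.32% of all genes were lower and 1.47% higher (761 and 337 genes, and 826 and 585 with quantile normalization). From D14 to D28 BBC3 was 0.54 ± 0.13 higher (adjusted p = 0.0391), 1 of 9 genes where 2.94% were higher and 1.12% lower. All 3 calls were lost when any library of the groups compared was left out (adjusted p = 0.0662 to 0.292).
In U251 CDKN1A was 0.91 ± 0.089 higher on the log2 scale at D14 than at D3 and 0.40 ± 0.089 lower at D28 than at D14 (adjusted p = 7.2e-06 and 0.00536), and both held in every alternative run. SESN1 (0.53 ± 0.14) and BAX (0.37 ± 0.11) were also higher at D14 than at D3 (adjusted p = 0.0148 and 0.0251), so that 3 of 9 genes were higher and 0 lower where 12.8% of all genes were higher and 12.6% lower. Without D14 replicate 2 or D3 replicate 2, 1 of these 3 calls was left. From D14 to D28 GDF15 was 0.55 ± 0.099 higher and ZMAT3 0.49 ± 0.13 lower (adjusted p = 0.00127 and 0.0148), with 1 gene of 9 called higher and 2 lower where 11.3% and 9.48% of all genes were. The ZMAT3 call was lost without D28 replicate 3 (0.0665).

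A list of 40 other p53 targets was also chosen with earlier results of these data known. In U87 9 of 40 rose and 1 fell at D3, 0 and 1 at D14, 11 and 3 at D28, and 18 and 5 at D28WO, with medians of 0.23, 0.028, 0.15 and 0.22 on the log2 scale against 0.20, 0.15, 0.19 and 0.25 over all genes. All genes were called higher and lower in 12.4% and 4.28% at D3, 4.14% and 1.02% at D14, 17.2% and 6.55% at D28, and 28.6% and 13.4% at D28WO. The 10 calls at D3 fell to 4 without D3 replicate 2, 6 without D3 replicate 3 and 4 with only the 2 groups in the fit. The 14 at D28 fell to 8 without Untreated replicate 3 or D28 replicate 2, to 9 without D28 replicate 1 and to 6 with only the 2 groups. The 1 at D14 was gone without Untreated replicate 3 or either D14 library. SESN2, a sestrin induced by nutrient and oxidative stress, was at 45.1 ± 3.35 TPM (SD, n = 3) in Untreated U87 and 162 ± 9.86 at D28WO, a rise of 1.82 ± 0.15 (limma adjusted p = 3.6e-06). PMAIP1, which encodes the BH3-only protein NOXA, rose from 41.6 ± 2.67 to 140.6 ± 8.67 TPM, and DRAM1, a lysosomal membrane protein of autophagy, from 25.8 ± 3.74 to 63.4 ± 1.77 TPM, by 1.73 ± 0.10 and 1.27 ± 0.10 on the log2 scale (adjusted p = 2.7e-07 and 3.0e-06).
Over the 38 genes of this list tested in U251, 15 rose and 8 fell at D3, 8 and 3 at D14, 15 and 8 at D28, and 10 and 6 at D28WO, with medians of 0.10, 0.12, 0.18 and 0.096 on the log2 scale against 0.13, 0.096, 0.16 and 0.015 over all genes. All genes were called higher and lower in 24.9% and 16% at D3, 13.8% and 7.31% at D14, 25.9% and 14.7% at D28, and 14.3% and 13.4% at D28WO. TSKU, a secreted proteoglycan, rose from 10.1 ± 0.697 TPM in Untreated to 153 ± 7.89 at D28, by 3.79 ± 0.10 on the log2 scale (limma adjusted p = 3.7e-12). SESN2 rose from 14.7 ± 2.73 to 93.0 ± 7.42 TPM at D3, by 2.60 ± 0.12 (adjusted p = 1.9e-09). BTG2, which restrains cell division, fell from 49.7 ± 1.53 to 9.13 ± 0.952 TPM at D28, by 2.33 ± 0.14 (adjusted p = 2.4e-08), while in U87 it rose by 0.68 ± 0.20 at D3 and 0.85 ± 0.18 at D28WO (adjusted p = 0.038 and 0.0025).

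Of 20 tested regulators of p53, 2 rose and 2 fell at D3 in U87, 2 and 0 at D14, 7 and 2 at D28, and 9 and 3 at D28WO. Their medians were 0.28, 0.19, 0.43 and 0.33 on the log2 scale, against 0.20, 0.15, 0.19 and 0.25 over all genes, with the shares of all genes called as given for the list of other targets. The 4 calls at D3 fell to 1 without either D3 library and 2 without Untreated replicate 3, and to 1 with quantile normalization or 2 groups in the fit. At D14 the 2 calls fell to 0 without Untreated replicate 3 or either D14 library and to 1 without Untreated replicate 1. The 9 at D28 fell to 4 without Untreated replicate 3, 5 without D28 replicate 2, 4 with quantile normalization, 5 with median-ratio size factors and 2 with 2 groups. MDM4, the partner of MDM2 that blocks p53, was at 10.4 ± 5.75 TPM in Untreated U87 and 24.2 ± 5.54 TPM at D3, 24.6 ± 0.289 at D14 and 18.4 ± 2.56 at D28. D28WO libraries held 26.4 ± 4.46 TPM, with a rise of 1.37 ± 0.29 at D28WO (limma adjusted p = 0.00271). The acetyltransferases EP300 and CREBBP rose in U87 at D28WO by 1.11 ± 0.36 and 0.92 ± 0.19 (adjusted p = 0.0265 and 0.00235).
In U251 6 of 20 regulators rose and 3 fell at D3, 2 and 2 at D14, 2 and 5 at D28, and 2 and 7 at D28WO. Their medians were 0.11, 0.088, -0.079 and -0.13 on the log2 scale, against 0.13, 0.096, 0.16 and 0.015 over all genes, of which 24.9%, 13.8%, 25.9% and 14.3% were called higher and 16%, 7.31%, 14.7% and 13.4% lower. The 9 calls at D28WO became 5 without D28WO replicate 3. HIPK2, a kinase that phosphorylates p53, fell from 91.8 ± 4.61 to 48.9 ± 4.50 TPM at D28 in U251, by 0.90 ± 0.082 (adjusted p = 1.1e-06). EP300 rose there by 0.80 ± 0.22 at D3 (adjusted p = 0.00994). TP63, a relative of p53, was low throughout, at 1.03 ± 0.469 TPM in Untreated and 0.116 ± 0.106 at D28WO, a fall of 0.84 ± 0.26 (adjusted p = 0.0275). It passed the filter of 0.5 TPM on the line mean only through its higher groups, so this fall is near the floor. CDKN2A, whose product p14ARF restrains MDM2, was chosen after its values were seen and lay at most at 1.58 TPM in any U87 library and 0.599 TPM in any U251 library.

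Of the 24 cell cycle genes known to be repressed through p21, 0 rose and 22 fell in U87 at D28WO (28.6% of all genes were called higher and 13.4% lower), with a median of -0.56 on the log2 scale against 0.25 over all genes. At D3, D14 and D28 the U87 counts were 0 and 3, 0 and 0, and 0 and 5, where 12.4% and 4.28%, 4.14% and 1.02%, and 17.2% and 6.55% of all genes were called higher and lower, with medians of -0.25, -0.053 and -0.23. The 3 calls at D3 became 0 without D3 replicate 2, 1 without Untreated replicate 3 and 10 with median-ratio size factors, and the 5 at D28 became 3 without Untreated replicate 1 or 3, 2 with only the 2 groups in the fit and 15 with median-ratio size factors. The transcription factors MYBL2 and E2F1 fell at D28WO in U87 by 1.51 ± 0.19 and 1.24 ± 0.12, and RRM2, a subunit of ribonucleotide reductase, by 1.14 ± 0.13 (limma adjusted p = 8.0e-05, 1.4e-05 and 3.3e-05). CDKN1A itself was not called in that comparison. The part of p21 in these changes was not tested, and its protein was not measured here.
In U251 22 of the 24 rose and 0 fell at D14, the group with the highest CDKN1A (13.8% of all genes were called higher and 7.31% lower). The median was 0.62 against 0.096 over all genes. Any link of these genes to CDKN1A in U251 was not tested. At D3, D28 and D28WO 3 rose and 4 fell, 8 and 3, and 5 and 12, where 24.9% and 16%, 25.9% and 14.7%, and 14.3% and 13.4% of all genes were called, with medians of -0.017, 0.028 and -0.36. The 7 calls at D3 became 4 with no filter on low values or with only the 2 groups in the fit. The 11 calls at D28 became 7 without Untreated replicate 2 or D28 replicate 1, and with median-ratio size factors or 2 groups. RRM2 fell by 1.81 ± 0.10 and MCM5, part of the replicative helicase, by 1.17 ± 0.15 at D28WO, where CDKN1A was lowest (limma adjusted p = 1.3e-08 and 4.5e-05). KIF20A, a mitotic kinesin, fell from 68.5 ± 6.60 TPM in Untreated to 23.7 ± 2.78 at D3 (adjusted p = 2.0e-08), and at D14 it was 0.73 ± 0.090 above Untreated on the log2 scale (7.1e-05).

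**Figure D4:**
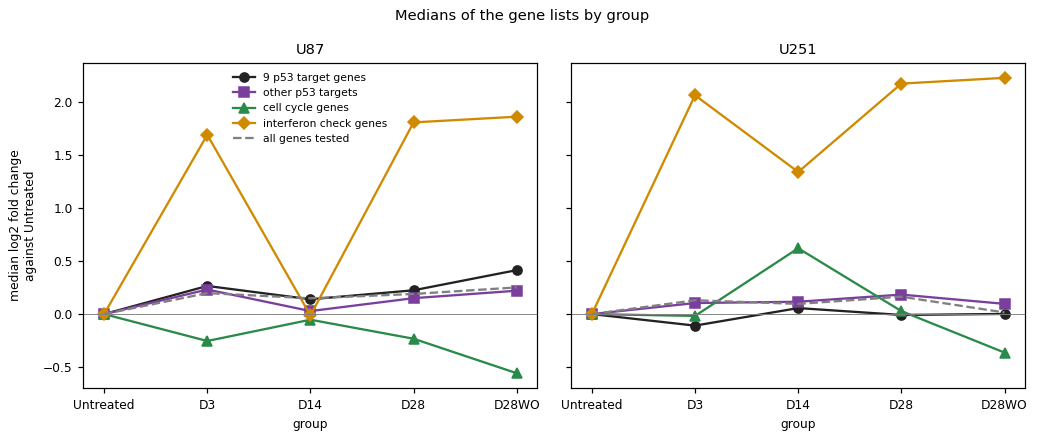
Median log2 fold change against Untreated (0 at Untreated) of the 9 p53 target genes, 40 other p53 targets, 24 cell cycle genes, 10 interferon check genes and all genes tested, by group in U87 (left) and U251 (right); lines only join the groups of a list. The check genes return to -0.013 at D14 in U87, and the cell cycle genes reach 0.62 at D14 in U251 and -0.56 at D28WO in U87.

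The genes whose 4 changes against Untreated lay closest to those of CDKN1A and MDM2, by root mean square difference over the 4 comparisons of a line, are given as a description. Among 14069 genes of at least 5 TPM in U87, these were CREG1, C1D and TXNDC9 for CDKN1A, at 0.021, 0.022 and 0.026, and MOSMO, SMARCC2 and UIMC1 for MDM2, at 0.022, 0.023 and 0.027. Among 14380 genes in U251 they were SEMA5A, TDO2 and CHTF18 for CDKN1A, at 0.15, 0.15 and 0.16, and WNT3, TRIM27 and DERL1 for MDM2, at 0.026, 0.027 and 0.028. The measure grows with the size of the changes, so the distances of one profile cannot be set against those of another.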

How the data were processed

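RNA sequencing covered 30 libraries of U87 and U251, with 5 groups of 3 for either line. The labels and the study's methods name Trim Galore, STAR and featureCounts with GRCh38. The values deposited by the authors are TPM, in 1 separately normalized table for each line, and how TPM was computed from the counts, and whether counting used strand, is not given in the sources used here. The study's methods state a minimum read depth for every sample. TPM keeps no depth, so the depth of a given library is unknown. Samples were grouped by their labels. In U87 2 deposited columns with the same name were not used, which left 28 libraries.

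Genes averaging 0.5 TPM or more in a line (22918 in U87, 23667 in U251) entered limma 3.58.1 (R 4.3.3; lmFit, and eBayes with trend) as log2(TPM + 1), with all groups of a line in 1 fit and Benjamini-Hochberg adjustment. A gene was called at an adjusted p under 0.05. Lines were not compared in a test. Alternatives were a pseudocount of 0.1, no filter or a filter at 1 TPM, quantile normalization, median-ratio size factors, 2 groups per fit, a replicate block, array weights, each library left out, and, added after seeing the data, a fit without D14.

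The 9 genes and the lists were chosen with earlier results of these data known. From the lists of other targets, regulators and cell cycle genes the text names, per line, the 3 largest changes against Untreated among called genes, with IRF1 from the check list and the 3 closest profiles to CDKN1A and MDM2. Some items that this rule or the marker and motif searches cover are not reported here. Coordinates come from GENCODE release 44 and promoter windows from RefSeq (GRCh38.p14). Python 3.11.15 with pandas 2.3.3 and matplotlib 3.10.9 made tables and figures.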

Additional observations from a re-analysis of the deposited data

Results flagged for a closer look

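For 13 pairs of gene and comparison, every treated library of 1 line lay on 1 side of its Untreated mean and every treated library of the other line on the opposite side, so that the changes as fitted pointed opposite ways. The difference between the lines was not tested, because their tables were normalized separately. Many of the values are small and most were not called. The pairs came from 9 genes in 4 comparisons with Untreated. The rule uses the Untreated mean and takes no account of the spread of the Untreated libraries. How many of all genes meet it was not counted, so the 13 pairs are not read as a result about the 9 genes. Against the median of all genes, which rose in either line, CDKN1A at D28WO (-0.18 in U87 and -0.57 in U251), BAX at D3 (-0.039 and -0.44) and ZMAT3 at D14 (-0.0092 and -0.26) had the same sign in both lines. On that scale the U87 values of BAX at D28WO (6.3e-05), ZMAT3 at D3 (0.0068), TP53INP1 at D14 (0.019) and FDXR at D28 (0.0044) lay close to 0.

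CDKN1A was at -0.16 on the log2 scale in U87 and 1.23 in U251 at D14, at -0.13 and 0.83 at D28, and at 0.071 and -0.55 at D28WO. The U251 values of all 3 were called and the U87 values were not.

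ZMAT3 was at 0.20 in U87 and -0.31 in U251 at D3, 0.14 and -0.16 at D14, 0.28 and -0.66 at D28, and 0.41 and -0.27 at D28WO. At D28 both values were called. TP53INP1 was at 0.51 and -0.11 at D3, 0.17 and -0.30 at D14, and 0.96 and -0.10 at D28WO.

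BAX was at 0.16 in U87 and -0.31 in U251 at D3, and at 0.25 and -0.24 at D28WO. FDXR was at 0.19 and -0.11 at D28.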

How the results depend on the processing

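Of 126 gene and comparison results, 45 were called, 22 of these held in every alternative and 23 were lost in at least 1, and none of the 45 changed sign. Of the 81 not called, 13 passed in some alternative and 31 changed sign, so the direction of a value that was not called is not a result. The number of the 9 genes called in U87 moved most. At D3 it went from 4 to 2 under either other scaling (quantile normalization, median-ratio size factors), and to 1 with only the 2 compared groups in a fit. At D28 it went from 4 to 1 under each of these 3. At D14 the 1 call became 0 with no filter on low values, with both normalizations and with only the 2 groups, and from D14 to D28 it became 0 with only the 2 groups. Between D14 and D3 the 2 calls became 1 with a pseudocount of 0.1, no filter or median-ratio size factors and 0 with only the 2 groups, and between D28WO and D28 array weights gave 5 in place of 3. The cause was not tested, but with 2 groups a fit has fewer libraries.

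The replicate numbers did not pair the samples, since 0 of 23 same-number pairs in U87 and 0 of 30 in U251 correlated above 0.1 in their deviations from the group means. With the replicate block, the count became 0 at D14 against Untreated, 1 between D14 and D3 and 0 between D28 and D14 in U87.

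With 1 library left out, the number of genes called in U87 ranged from 1 to 4 at D3, 0 to 1 at D14, 1 to 3 at D28, 5 to 6 at D28WO, 0 to 0 between D14 and D3, 0 to 0 between D28 and D14 and 3 to 3 between D28WO and D28. In U251 it ranged from 2 to 4 at D3, 2 to 4 at D14, 3 to 4 at D28, 2 to 3 at D28WO, 1 to 3 between D14 and D3, 2 to 4 between D28 and D14 and 3 to 5 between D28WO and D28. Where this left U87 D3 or D14 with 1 library, that library is assumed to vary like the other groups.

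Calls over all genes in U87 went from 3823 to 2234 (quantile) and 1082 (2 groups) at D3, and from 5445 to 3369 and 2450 at D28. At D14 they went from 1182 to 647 (no filter), 481 (quantile), 762 (median-ratio) and 59 (2 groups). With 2 groups they went from 1098 to 0 between D14 and D3, from 930 to 307 between D28 and D14, and in U251 from 6026 to 3980 between D14 and D3. With 1 library left out, U87 calls over all genes fell at D3 to 1176 and 2139 (without D3 replicate 2 and 3) and 2303 (Untreated replicate 3), and at D14 to 119 and 125 (D14 replicate 2 and 3), 755 and 403 (Untreated replicate 1 and 3). They fell at D28 to 3612 (D28 replicate 2) and 3315 (Untreated replicate 3), and between D28WO and D28 from 4202 to 2412 and 2637 (D28WO replicate 1 and 2). Between D14 and D3 they fell to 473 to 676 without any 1 of their libraries, and between D28 and D14 to 447 and 491 (D14 replicate 2 and 3). Cell cycle genes called in U87 at D28WO numbered 19 to 23 and in U251 at D14 22 to 23 over all alternatives, while in U87 they numbered 0 to 10 at D3 and 2 to 15 at D28. TPM hides depth.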
